A study of Mus musculus with 9 samples.

Results

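Translation initiation factors are the proteins that bring the ribosome and the initiator methionine tRNA to the start codon of an mRNA. They were taken here as the protein-coding genes of the deposited count table whose symbol starts with Eif and a digit, leaving out the eIF2 kinases (Eif2ak), the 4E-binding proteins (Eif4ebp) and the sex-linked pair Eif2s3x and Eif2s3y. The rule gave 45 genes out of 28111 in the table, and all 45 passed the filter on low counts. A further 14 rows whose symbols start the same way fell outside it, among them 5 pseudogenes. The measurements were mRNA sequencing counts from induced regulatory T cells of C57BL/6J mice, in 4 libraries with a Glut1 transgene (Glut1Tg) and 5 wild-type libraries (WT), set up to compare Glut1 transgenic with control cells. Glut1 is a plasma membrane glucose transporter, encoded by Slc2a1. The labels also put each library in a mouse group. Mouse group 1 held WT replicates 1 and 3 and Glut1Tg replicates 2, 3 and 4, and mouse group 2 held WT replicates 2, 4 and 5 and Glut1Tg replicate 1. The sources used here do not say what the mouse groups stand for, which promoter drives the transgene, how old the mice were or whether the libraries came from separate animals. The p-values therefore speak only to how these libraries varied, which could be technical.

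Initiation proceeds in steps, and each family of factors has its own. The cap of the mRNA is bound by eIF4E, which sits with the scaffold eIF4G and the RNA helicase eIF4A in the complex eIF4F. The small ribosomal subunit carries eIF1, eIF1A, eIF3, eIF5 and the ternary complex of eIF2, GTP and initiator tRNA, and scans to the start codon. Recognition of the codon releases eIF2 with GDP, the exchange factor eIF2B recharges it, and eIF5B joins the large subunit. T cells raise protein synthesis strongly when activated, and eIF4F and eIF2B are main points of control.

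Slc2a1 ranged from 29.7 to 58.7 CPM (counts relative to library totals scaled by the trimmed mean of M values, TMM) in WT and from 260.2 to 496 CPM in Glut1Tg, so the genotypes did not overlap. Library totals ran from 20881035 to 31196428 counts. Foxp3 was detected in every library, from 621 to 1164 CPM. The sex-linked transcripts Xist and Ddx3y split the Glut1Tg libraries. Xist was at 256 and 340 CPM in Glut1Tg replicates 2 and 4 and at most 1.32 CPM elsewhere. Ddx3y was at 0.298 and 0 CPM in those libraries and at 57.5 to 145 CPM elsewhere, including all 5 WT libraries. Sex, as read from these transcripts, was therefore unbalanced between genotypes, and no fit or test included it. It was also unbalanced between mouse groups, as Glut1Tg replicates 2 and 4 were both in mouse group 1. Of the libraries, 3 stood apart. WT replicate 2 and Glut1Tg replicate 1 lay at 88.2 and 100.5 on the first principal component of all genes, which took 50.7% of the variance, while no other library was above 12.8. The summed level of 6 proliferation markers was 4428 CPM in WT replicate 2 and 4430 CPM in Glut1Tg replicate 1, against 786 to 1947 CPM in the others. Glut1Tg replicate 3 stood at 78.4 on the second component (20.4% of the variance), with no other library above 30.6. It had the highest sums for 7 mast cell and basophil markers (2388 CPM against 93.0 to 833), for 8 myeloid markers (408 CPM against 5.45 to 30.9) and for 6 erythroid and platelet markers (1047 CPM against 4.16 to 278.5), and the lowest for 5 T and Treg markers (2071 CPM against 2676 to 5294). Of these 5, Cd3e, Cd4 and Foxp3 were lowest in Glut1Tg replicate 3 (Cd3e 288 CPM against 310 to 411), but Il2ra and Ctla4 were not. Il2ra stood at 2386 and 2959 CPM in WT replicate 2 and Glut1Tg replicate 1, against 241 to 690 CPM elsewhere. Kit, at 79.6 to 146 CPM in all libraries, did not follow the other mast cell markers. It held 124 of 128 CPM of their sum in WT replicate 2 and 86.8 of 93.0 CPM in Glut1Tg replicate 1. B cell markers (3 genes) summed to 3.33 to 7.02 CPM and cytotoxic T and NK markers (4 genes) to 7.07 to 11.6 CPM over all libraries. Of these 39 marker genes none was at 0 in all libraries. In bulk RNA, fewer cells of a type and less RNA per cell cannot be told apart.

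To show the sequence around the starts of the members on which the results turn, 4 windows are printed below. Eif4a1 and Eif4a2 are the paralogs of the eIF4A helicase, which ran in opposite directions in several libraries, Eif5a had the highest genotype fold change, and Eif3f was the only member of 36 matched in RefSeq whose start met the rule for a terminal oligopyrimidine tract (a C followed by 4 pyrimidines). Each window runs 5′ to 3′ on the gene's strand, from 250 bases before the annotated start to 30 after it, from RefSeq on GRCm38.p6, the build that mm10 names. The locations are chr11:69672394-69672673 on the minus strand for Eif4a1, chr16:23107218-23107497 on the plus strand for Eif4a2, chr11:69921357-69921636 on the minus strand for Eif5a and chr7:108934165-108934444 on the plus strand for Eif3f. Capitals mark each CACGTG and, in Eif3f, the 5 bases of the pyrimidine tract at the start.
Eif4a1: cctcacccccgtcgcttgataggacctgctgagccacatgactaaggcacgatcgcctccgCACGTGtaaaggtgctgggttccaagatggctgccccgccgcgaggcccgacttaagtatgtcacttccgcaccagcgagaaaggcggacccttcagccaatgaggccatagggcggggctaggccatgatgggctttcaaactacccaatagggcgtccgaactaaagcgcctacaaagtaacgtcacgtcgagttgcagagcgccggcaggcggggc
Eif4a2: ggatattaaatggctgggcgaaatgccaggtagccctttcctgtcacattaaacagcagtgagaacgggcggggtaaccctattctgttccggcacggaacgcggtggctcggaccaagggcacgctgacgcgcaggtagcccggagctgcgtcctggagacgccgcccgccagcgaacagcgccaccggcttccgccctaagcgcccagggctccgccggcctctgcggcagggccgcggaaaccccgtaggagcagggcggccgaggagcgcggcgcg
Eif5a: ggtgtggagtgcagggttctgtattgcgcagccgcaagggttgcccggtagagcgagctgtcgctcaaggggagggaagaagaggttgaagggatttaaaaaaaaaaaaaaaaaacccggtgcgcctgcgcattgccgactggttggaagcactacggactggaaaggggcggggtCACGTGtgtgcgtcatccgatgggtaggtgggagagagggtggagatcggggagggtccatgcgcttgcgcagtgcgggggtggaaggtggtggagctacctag
Eif3f: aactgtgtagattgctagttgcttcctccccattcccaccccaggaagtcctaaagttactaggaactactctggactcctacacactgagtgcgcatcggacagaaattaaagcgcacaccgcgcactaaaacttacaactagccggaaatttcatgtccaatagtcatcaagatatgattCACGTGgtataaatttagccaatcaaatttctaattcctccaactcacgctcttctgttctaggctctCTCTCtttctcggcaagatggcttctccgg

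The 6 letters CACGTG, an E-box bound by MYC and other basic helix-loop-helix factors, read the same on both strands. In the full windows of 300 bases they occurred for 10 of the 36 matched members (27.8%), against 8.09% of 27025 genes with a RefSeq window. Those members were Eif1b, Eif3a, Eif3f, Eif3k, Eif4a1, Eif4e, Eif4g1, Eif4h, Eif5a and Eif5a2. Relative to the start the motif began at -189 in Eif4a1, at -74 in Eif5a and at -68 in Eif3f, and the printed window of Eif4a2 held none. RefSeq gives 6 windows for Eif5a, of which 3 held the motif, and the one printed was chosen because it does. Of those 3, a second overlaps the printed window and holds the same site at -185 from its own start, and the third holds another at -178. None was found in the window at the gene's outermost annotated start. Counted per window, CACGTG occurred in 12 of 48 windows of members (25.0%) and in 7.15% of all windows. A start of C and 4 pyrimidines was found for 2.78% of the matched members and 3.01% of all genes. The 10 members with CACGTG had a median genotype log2 fold change (Glut1Tg over WT) of 0.30, with 8 positive, and the 26 without had 0.22, with 22 positive. The shares over all genes with a window were not limited to genes that passed the filter on low counts, as all members did. A match says only that these letters are in the window.

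Levels of different genes were compared per kilobase of exon, taking the union of all annotated exons (GENCODE vM21). On that scale the highest means over the 9 libraries were those of Eif3h (435.5 CPM per kilobase), Eif1 (332), Eif5a (279.6), Eif3f (253) and Eif4b (181), and Eif4a1 followed at 119. The lowest were those of Eif2b3 (1.78 CPM per kilobase), which encodes the gamma subunit of eIF2B, Eif3j2 (2.92) and Eif5a2 (3.95). Together the 45 genes took from 0.971% of all counts in WT replicate 5 to 1.28% in Glut1Tg replicate 3. The coefficient of variation over the 9 libraries had a median of 21.8% among members. The median was 31.1% over all genes tested and 24.5% over genes with a mean of 10 CPM or more. Eif4b, a cofactor of the eIF4A helicase, varied least of the members at 6.27%. Eif3j2 (64.7%), Eif2b3 (56.7%) and Eif5a (54.9%) varied most. Counts of some members are uncertain because other genes carry the same sequence. The 75-base stretches of each member's longest protein-coding transcript were sought in annotated transcripts of other genes. A member's other transcripts were not scanned. Of these stretches, 87.4% for Eif3j2 and 37.7% for Eif3j1 occurred in the other of that pair, and 62.9% for Eif4a1 occurred in other genes, mainly pseudogenes. The share was 25.6% for Eif1, 22.4% for Eif2s2, 21.3% for Eif3m, 16.7% for Eif3h and 13.03% for Eif4a3, and below 10% for all others. Exons of Eif1b, Eif2b4, Eif2d, Eif3d, Eif4a2 and Eif6, among others, overlap genes on the opposite strand, and the sources used here do not say whether the counting used strand.

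**Figure D1:**
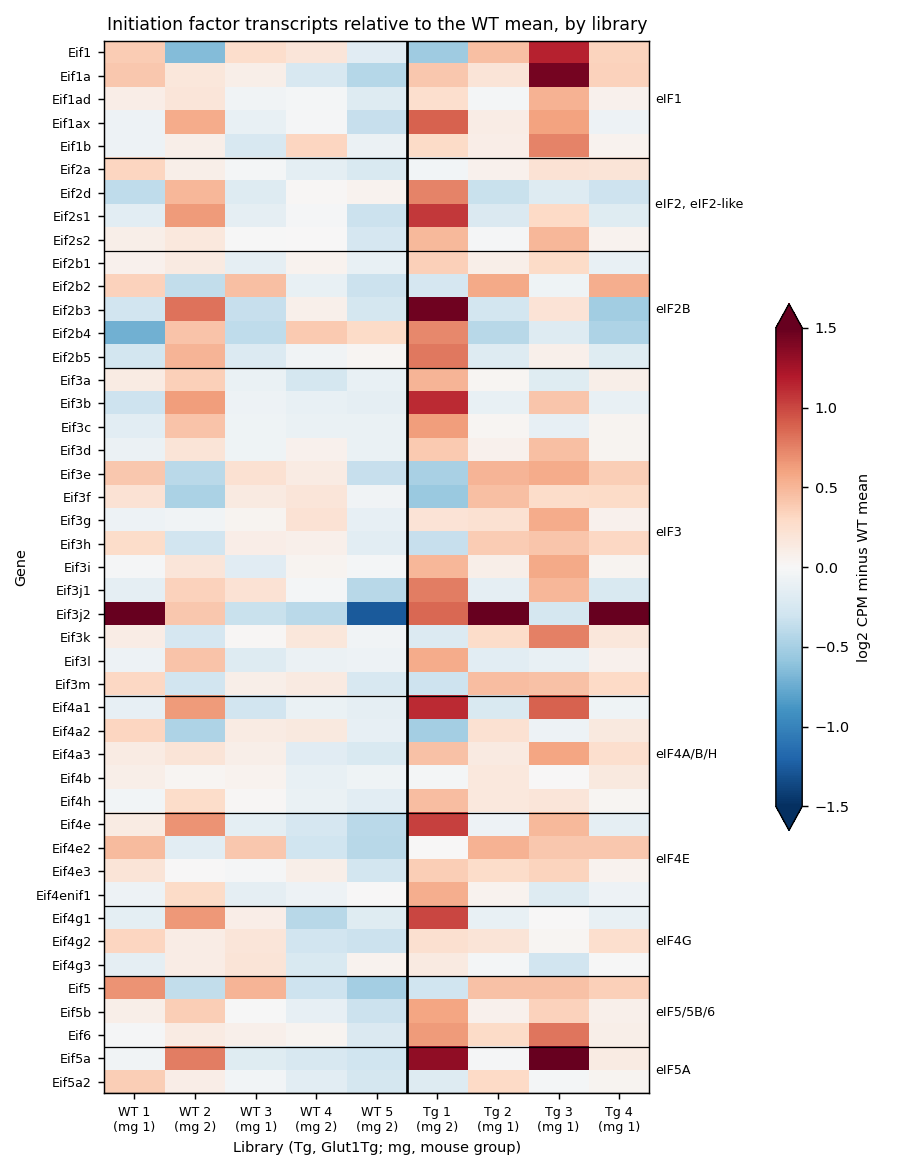
Each cell is the log2 CPM of 1 gene in 1 library minus the mean of the 5 WT libraries, with genes in rows by family and libraries in columns (Tg, Glut1Tg; mg, mouse group), and colours end at -1.5 and 1.5. Apart from Eif3j2, the darkest reds lie in Glut1Tg replicates 1 and 3, and WT replicate 2 shares much of the pattern of Glut1Tg replicate 1.

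The first comparison asked whether initiation factor transcripts differed between Glut1Tg and WT cells, with mouse group in the model. No member passed the test: 0 of 45 had an adjusted p under 0.05 in edgeR's quasi-likelihood test, where 0.00675% of the 14817 genes tested did (1 gene), and the lowest adjusted p of a member was 0.681. DESeq2 and limma-voom also called 0 members. At an unadjusted p under 0.05, 7 of 45 members were higher in Glut1Tg and 0 were lower. Over all 14817 genes tested, 667 (4.5%) were higher and 222 (1.5%) were lower. Of the 9032 genes with a mean of 10 CPM or more, 520 were higher and 100 were lower. The estimated difference was positive for 38 of 45 members, against 52.4% of all genes tested, with a median log2 fold change of 0.25 against 0.02 over all genes and 0.04 over genes with a mean of 10 CPM or more. In no member did the Glut1Tg libraries lie wholly above or wholly below the WT libraries, which held for 1.01% and 0.58% of all genes. The median SE of a member's log2 fold change was 0.16.

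These counts depended on single libraries. Without Glut1Tg replicate 1 the median was 0.11 on the log2 scale, 33 members were positive and 0 were at an unadjusted p under 0.05. Without Glut1Tg replicate 3, 2 members were at that level and the median was 0.21. Within mouse group 1 the median was 0.14, with 35 positive and 0 at that level, and in mouse group 2 a single Glut1Tg library gives no such test. With WT replicate 2 and Glut1Tg replicates 1 and 3 left out, an alternative chosen after seeing the data, the median was 0.06 and 31 members were positive. Relative to the WT mean, the average log2 difference over the 45 members was 0.38 in Glut1Tg replicate 1 and 0.34 in replicate 3, against 0.14 in replicate 2 and 0.09 in replicate 4. In WT replicates 1 to 5 the same average was 0.09, 0.17, -0.01, -0.05 and -0.21. Glut1Tg replicates 2 and 4 therefore lay within the range of the WT libraries and replicates 1 and 3 above it. The 99 tested protein-coding genes whose symbols start with Rpl or Rps and a digit averaged -0.09 in Glut1Tg replicate 1 and 0.71 in replicate 3 on the same scale. Besides genes of cytosolic ribosomal proteins, this symbol rule takes in kinase genes such as Rps6kb1 and Rps6kb2. Slc2a1 stood at 260 and 279 CPM in Glut1Tg replicates 1 and 3 and at 496 and 457 CPM in replicates 2 and 4. Replicates 2 and 4 were also the libraries with Xist. How far the differences in Slc2a1, sex-linked transcripts or cell markers account for the members' values was not tested.

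Among the cap-binding and helicase factors, Eif4a1 (ENSMUSG00000059796, chr11:69666936-69672423 on the minus strand of mm10), the main eIF4A helicase of dividing cells, had the highest fold change after Eif5a. In order of replicate number, Eif4a1 stood at 389, 655, 346, 395 and 385 CPM in WT and at 915, 359.5, 778 and 403 CPM in Glut1Tg. WT replicate 2 and Glut1Tg replicates 1 and 3 were high, and Glut1Tg replicates 2 and 4 lay among the WT libraries. The means were 434 ± 125 CPM in WT (SD, n = 5) and 614 ± 275 CPM in Glut1Tg (SD, n = 4). The log2 fold change in edgeR was 0.66 (SE 0.28, unadjusted p = 0.0396, adjusted p = 0.681), 0.44 without Glut1Tg replicate 3 and 0.04 without the 3 libraries that stood apart. The pseudogene Eif4a-ps4, which shares sequence with Eif4a1, held 22.1 to 60.4 CPM in WT and 23.3 to 78.7 CPM in Glut1Tg, with WT replicate 2 and Glut1Tg replicate 1 the highest there too.

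Its paralog Eif4a2, linked to translational repression, ran the other way in WT replicate 2 and Glut1Tg replicate 1. Eif4a2 stood at 576, 332, 501, 509 and 421 CPM in WT and 322, 541, 435 and 509 CPM in Glut1Tg, those libraries being the lowest of their genotypes. Its log2 fold change was -0.22 (SE 0.17, unadjusted p = 0.212, adjusted p = 0.689), the lowest of all members. The ratio of Eif4a1 to Eif4a2 counts within a library does not depend on how libraries are scaled. It was 0.675, 1.97, 0.691, 0.776 and 0.913 in WT and 2.84, 0.664, 1.79 and 0.792 in Glut1Tg. The mean log2 ratio was -0.12 ± 0.64 in WT (SD, n = 5) and 0.36 ± 0.99 in Glut1Tg (SD, n = 4), and an exact two-sided permutation test over all splits gave p = 0.357 (adjusted 0.957 over 9 ratios). Eif4a3, a helicase of the exon junction complex rather than of initiation, had a log2 fold change of 0.34 (SE 0.15, unadjusted p = 0.0518, adjusted p = 0.681). The cofactor Eif4b stood at 839, 804, 818, 732 and 757 CPM in WT and 771, 879, 792 and 873 CPM in Glut1Tg, overlapping almost fully, with a log2 fold change of 0.03 (SE 0.11, unadjusted p = 0.827, adjusted p = 0.951). Eif4a3 ranged from 109 to 193 CPM over the 9 libraries. The other cofactor, Eif4h, ranged from 285 to 437 CPM.

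**Figure D2:**
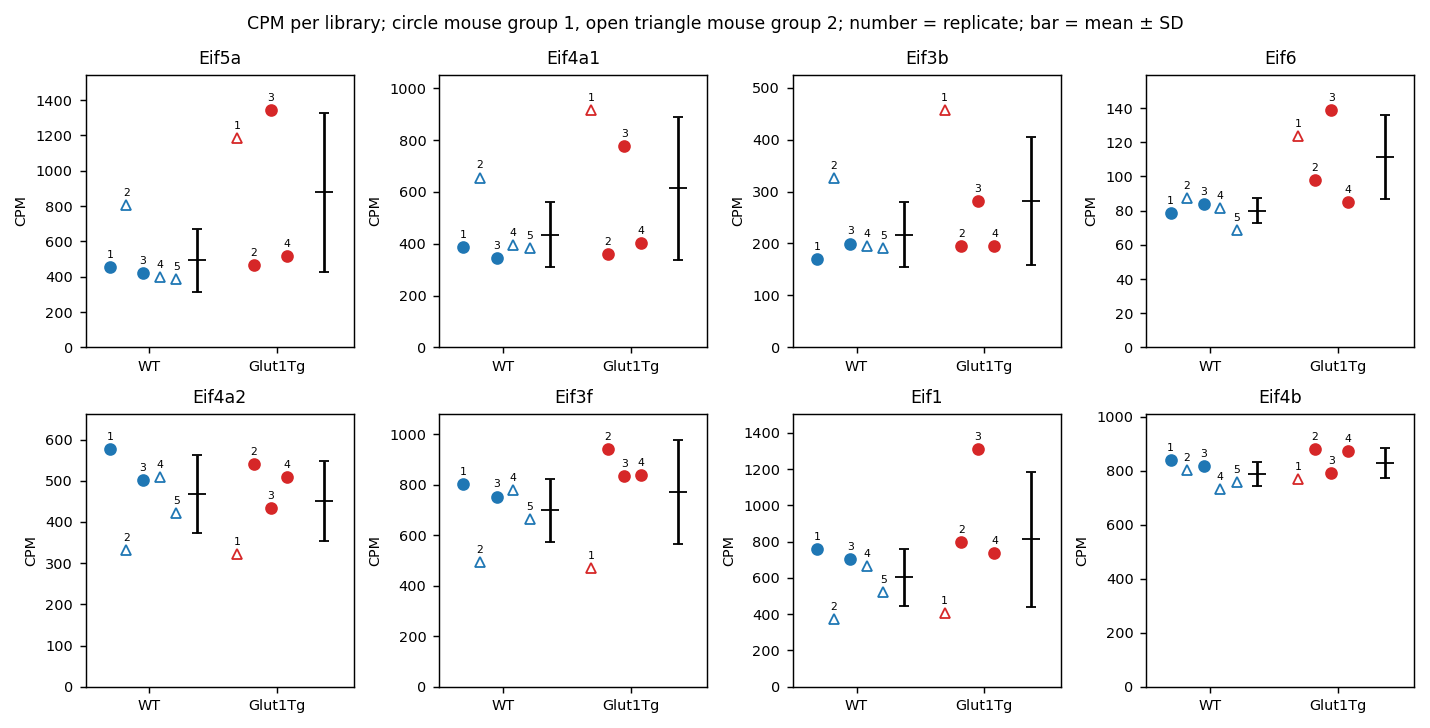
CPM of 8 genes in each library, with WT in blue and Glut1Tg in red, circles for mouse group 1, open triangles for mouse group 2, replicate numbers above the points, and bars for the mean ± SD of each genotype. Eif5a and Eif4a1 are high in WT 2 and Glut1Tg 1 and 3, Eif4a2 and Eif3f are low in WT 2 and Glut1Tg 1, and Eif4b stays between 732 and 879 CPM.

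Cap binding itself is done by eIF4E. Eif4e stood at 62.9, 92.1, 52.1, 48.4 and 43.5 CPM in WT and 118, 54.6, 80.9 and 52.5 CPM in Glut1Tg, again highest in WT replicate 2 within WT and in Glut1Tg replicates 1 and 3 within Glut1Tg. The log2 fold change of Eif4e was 0.45 (SE 0.28, unadjusted p = 0.137, adjusted p = 0.681). Eif4e2, a cap-binding homolog that acts in repression, stood at 158, 102, 151, 92.4 and 85.1 CPM in WT and 114, 163, 151 and 151 CPM in Glut1Tg, and the genotypes overlapped. Eif4e3, another homolog, stood at 28.2, 24.8, 24.4, 26.3 and 20.3 CPM in WT and 31.8, 29.8, 31.2 and 25.6 CPM in Glut1Tg. The log2 fold changes were 0.12 for Eif4e2, 0.25 for Eif4e3 and 0.21 for Eif4enif1, which carries eIF4E to the nucleus and ranged from 114 to 190.3 CPM. Without Glut1Tg replicate 1 the value of Eif4enif1 was 0.0094. Of the scaffolds, Eif4g1 stood at 302, 526.37, 358, 251 and 296 CPM in WT and 673, 311, 337 and 309.6 CPM in Glut1Tg, and its log2 fold change was 0.34 (SE 0.26, unadjusted p = 0.223, adjusted p = 0.690). WT replicate 2 and Glut1Tg replicate 1 were again the highest, and Glut1Tg replicate 3 lay among the other libraries. Eif4g2, a homolog without the eIF4E-binding part, had the highest CPM of the scaffolds at 1085, 934, 981, 708 and 689 in WT and 1022, 987, 880.4 and 1032 in Glut1Tg, with a log2 fold change of 0.10. Eif4g3 stood at 254.57, 302, 321, 239 and 289 CPM in WT and 307, 274, 228 and 279 CPM in Glut1Tg, with a log2 fold change of -0.03. The mean log2 Eif4e to Eif4e2 ratio differed by -0.01 between genotypes, and 0 of the 9 ratios passed the exact permutation test by genotype, adjusted or not, with raw p from 0.214 to 0.968.

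Eif5a, which encodes a factor that carries the amino acid hypusine and helps peptide bond formation, had the highest fold change of the 45 (ENSMUSG00000078812, chr11:69916714-69921958 on the minus strand of mm10). Eif5a stood at 457, 806, 419, 399 and 385 CPM in WT and at 1186, 469, 1343 and 517 CPM in Glut1Tg. Glut1Tg replicates 1 and 3 lay above every WT library, and replicates 2 and 4 lay between WT replicate 2 and the other 4. The means were 493.31 ± 177 CPM (SD, n = 5) and 879 ± 451 CPM (SD, n = 4). The edgeR fold change was 1.94 (95% interval 1.095 to 3.44), or 0.96 (SE 0.37, unadjusted p = 0.0276, adjusted p = 0.681) in log2. Within mouse group 1 its log2 fold change was 0.82, without Glut1Tg replicate 3 it was 0.61, and without WT replicate 2 and Glut1Tg replicates 1 and 3 it was 0.16. Its paralog Eif5a2 stood at 25.1, 20.9, 18.9, 17.5 and 16.2 CPM in WT and 17.0, 23.9, 19.1 and 20.1 CPM in Glut1Tg, so the genotypes overlapped. The ratio of Eif5a to Eif5a2 counts ranged from 18.2 to 38.7 in WT and was 69.7, 19.6, 70.3 and 25.8 in Glut1Tg, and the exact permutation p was 0.214 (adjusted 0.957). Both enzymes of hypusine synthesis were measured. Dohh, which completes hypusine, stood at 26.0, 26.0, 36.1, 31.2 and 30.5 CPM in WT and 40.2, 37.7, 49.5 and 36.2 CPM in Glut1Tg, with every Glut1Tg library above every WT library by a narrow margin (36.2 against 36.1 CPM for the nearest pair). Its log2 fold change was 0.43 (SE 0.16, unadjusted p = 0.0254, adjusted p = 0.681). Dhps, which acts first, had a log2 fold change of 0.16 (SE 0.13, unadjusted p = 0.253, adjusted p = 0.700).

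The factors of subunit joining came next. Eif6, which keeps the ribosomal subunits apart, had the lowest unadjusted p of all members (chr2:155819832-155826925 on the minus strand of mm10). Eif6 stood at 78.8, 87.2, 83.9, 81.7 and 68.4 CPM in WT and at 124, 97.6, 139 and 84.8 CPM in Glut1Tg. Glut1Tg replicates 1, 2 and 3 lay above every WT library, and replicate 4 lay below WT replicate 2. The log2 fold change was 0.49 (SE 0.17, unadjusted p = 0.0171, adjusted p = 0.681), and it was 0.15 without WT replicate 2 and Glut1Tg replicates 1 and 3. Eif5, the GTPase-activating protein for eIF2, stood at 479, 232, 426, 241 and 209 CPM in WT and 243, 405, 405 and 384 CPM in Glut1Tg, with a log2 fold change of -0.08 (SE 0.12, unadjusted p = 0.530, adjusted p = 0.839). Eif5b, the GTPase of joining, ranged from 121 to 229.8 CPM and had a log2 fold change of 0.31 (SE 0.17, unadjusted p = 0.109, adjusted p = 0.681).

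The 14 genes of eIF3, the large complex that holds the small subunit ready for mRNA, were positive in 12 cases, with a median log2 fold change of 0.24. Eif3b, a core subunit that scaffolds the complex, stood at 169.7, 326, 199.96, 196 and 192 CPM in WT and 457, 196, 282 and 195 CPM in Glut1Tg, with WT replicate 2 and Glut1Tg replicates 1 and 3 high. For it the log2 fold change was 0.54 (SE 0.23, unadjusted p = 0.0401, adjusted p = 0.681), and 0.25 without Glut1Tg replicate 1. Eif3i, which binds Eif3b, stood at 142, 163, 128, 148 and 141 CPM in WT and 203, 153, 214 and 148 CPM in Glut1Tg. Its log2 fold change was 0.38 (SE 0.14, unadjusted p = 0.0259, adjusted p = 0.681), and Glut1Tg replicates 1 and 3 were the only libraries above WT replicate 2. Eif3d, a subunit that can bind the cap, stood at 175, 214, 178, 195 and 173 CPM in WT and 245, 195, 255.38 and 192 CPM in Glut1Tg, with a log2 fold change of 0.30 (SE 0.13, unadjusted p = 0.0493, adjusted p = 0.681). These 3 were the subunits at an unadjusted p under 0.05. The subunit with the highest CPM was Eif3f, at 804, 496, 754, 779 and 664 CPM in WT and 470.3, 941, 834 and 840.3 CPM in Glut1Tg, and its log2 fold change was -0.07 (SE 0.19, unadjusted p = 0.726, adjusted p = 0.919). The sign of Eif3f was positive within mouse group 1 (0.16) and without Glut1Tg replicate 1 (0.13).

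The eIF3 subunits did not move together across libraries. Eif3a, Eif3b, Eif3c, Eif3j1 and Eif3l were highest in WT replicate 2 within WT and in Glut1Tg replicate 1 within Glut1Tg. Eif3e, Eif3f, Eif3h, Eif3k and Eif3m were lowest in those same libraries. In WT replicate 2, Eif3c was at 468 CPM against 311 to 333 in the other WT libraries, and Eif3f at 496 CPM against 664 to 804. Over all 45 members, 18 were highest in both of these libraries within their genotypes and 8 were lowest in both. The shares of all genes tested with these patterns were not counted. Both libraries stood apart on the first principal component of all genes, so these counts cannot be read as particular to the members. Of the subunits not given by library, Eif3a ranged from 317 to 544 CPM, Eif3k from 182 to 366, Eif3l from 184 to 309 and Eif3m from 181 to 309 CPM. Eif3g ranged from 109 to 175 CPM, and Eif3j1 from 23.1 to 52.5 CPM. The near-copy Eif3j2 held 12.97, 5.599, 3.33, 3.18 and 1.72 CPM in WT and 7.75, 12.4, 3.52 and 12.2 CPM in Glut1Tg. It was high in WT replicate 1 and Glut1Tg replicates 2 and 4, and its counts cannot be separated with confidence from those of Eif3j1.

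Start codon selection depends on eIF1 and eIF1A. All 5 genes of this family had positive fold changes, with a median log2 value of 0.37. Eif1ax, the X-linked gene of eIF1A, stood at 48.3, 74.7, 47.0, 50.4 and 39.9 CPM in WT and 93.7, 55.1, 77.2 and 48.2 CPM in Glut1Tg, with a log2 fold change of 0.51 (SE 0.22, unadjusted p = 0.0482, adjusted p = 0.681). Glut1Tg replicates 1 and 3 were the highest and exceeded WT replicate 2, and without Glut1Tg replicate 1 the log2 fold change was 0.30. In Glut1Tg replicates 2 and 4, the only libraries with Xist (256 and 340 CPM, against at most 1.32 elsewhere), Eif1ax lay among the WT values. Eif1a, its autosomal paralog, stood at 59.8, 50.7, 48.2, 38.4 and 33.7 CPM in WT and 59.7, 51.9, 122 and 57.6 CPM in Glut1Tg, with 1 library, Glut1Tg replicate 3, far above the rest. Eif1 stood at 761, 373, 702, 664 and 521 CPM in WT and 406, 799, 1309 and 737 CPM in Glut1Tg, and Glut1Tg replicate 3 was again the highest. The lowest for Eif1 were WT replicate 2 and Glut1Tg replicate 1, and its log2 fold change was 0.10 (SE 0.27, unadjusted p = 0.707, adjusted p = 0.912). The paralog Eif1b stood at 31.9, 35.8, 28.4, 41.9 and 31.7 CPM in WT and 41.0, 36.0, 56.2 and 34.8 CPM in Glut1Tg, with a log2 fold change of 0.37 (SE 0.19, unadjusted p = 0.0863, adjusted p = 0.681). Eif1ad, whose product resembles eIF1A, ranged from 63.3 to 104 CPM.

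None of the subunits of eIF2 and its exchange factor was at an unadjusted p under 0.05 by genotype. Eif2s1, the alpha subunit that stress kinases phosphorylate, stood at 79.0, 138, 80.7, 87.6 and 70.7 CPM in WT and 184, 76.3, 109 and 78.1 CPM in Glut1Tg, with WT replicate 2 and Glut1Tg replicate 1 highest. For Eif2s1 the log2 fold change was 0.44 (SE 0.24, unadjusted p = 0.0960, adjusted p = 0.681). The beta subunit Eif2s2 had the highest CPM of this family, at 128, 135, 119.6, 121 and 101 in WT and 169, 119, 170.0 and 125 in Glut1Tg, and a log2 fold change of 0.29 (SE 0.16, unadjusted p = 0.0992, adjusted p = 0.681). Eif2a and Eif2d, which can deliver initiator tRNA by other routes, had log2 fold changes of 0.02 and 0.21, and Eif2a ranged from 85.9 to 125.72 CPM. Without Glut1Tg replicate 1 the value of Eif2s2 was 0.12. For the 5 subunits of eIF2B the log2 fold changes ran from -0.01 (Eif2b2) to 0.57 (Eif2b3), and the median was 0.25.

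**Figure D3:**
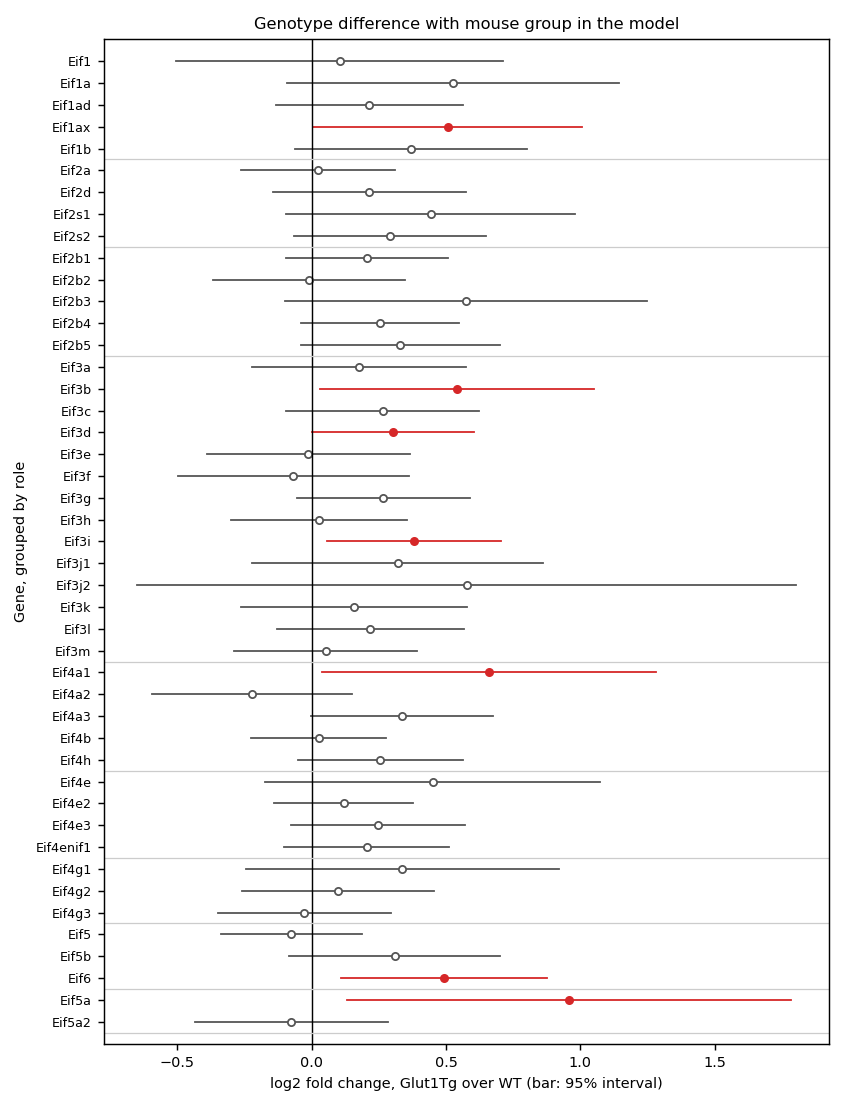
Log2 fold change of Glut1Tg over WT for each gene, grouped by family, from edgeR with mouse group in the model, with bars for the 95% interval. Red filled points mark the 7 members at an unadjusted p under 0.05, none of which passed after adjustment, and 38 of the 45 points lie to the right of 0.

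Regulators and partners outside the 45 members were examined with 39 further genes, all of them in the table. Of these, 0 had an adjusted p under 0.05 by genotype in edgeR, and 5 were at an unadjusted p under 0.05, all higher in Glut1Tg, as were 4.5% of all genes tested. Those at that level, besides Dohh, were Pabpc4, a poly(A)-binding protein, Eef1g and Eef1e1, partners in elongation and tRNA charging, and Abce1, which recycles ribosomes. Positive values were found for 28 of the 39, against 52.4% of all genes tested, with a median log2 fold change of 0.11. Pabpc4 stood at 134, 134, 139.6, 92.2 and 99.5 CPM in WT and 185, 153, 165 and 149 CPM in Glut1Tg, and every Glut1Tg library exceeded every WT library. Its log2 fold change was 0.42 (SE 0.16, unadjusted p = 0.0281, adjusted p = 0.681), and without Glut1Tg replicate 1 it was 0.16. Eef1e1 stood at 10.7, 22.6, 9.17, 12.7 and 11.2 CPM in WT and 30.8, 10.5, 27.6 and 11.6 CPM in Glut1Tg, with the same 3 libraries high as for Eif5a, and a log2 fold change of 0.84 (SE 0.34, unadjusted p = 0.0362, adjusted p = 0.681). Abce1 (log2 0.64) and Eef1g (log2 0.42) had the same 3 libraries highest. The value of Eef1e1 was 0.52 without Glut1Tg replicate 3, and that of Abce1 was 0.40 without Glut1Tg replicate 1. Of the genes with the highest CPM in each group, Pabpc1, the main poly(A)-binding protein, stood at 1469, 1497, 1407, 1350.3 and 1323 CPM in WT and 1457, 1534, 1654 and 1568 CPM in Glut1Tg, and its log2 fold change was 0.11 (SE 0.12, unadjusted p = 0.367, adjusted p = 0.763). The elongation factor Eef1a1 had a log2 fold change of 0.02, the helicase Ddx3x 0.07, the kinase Mknk2 0.14, which phosphorylates eIF4E, and the termination factor Etf1 0.28. Eif2ak1, the heme-regulated eIF2 kinase, was at -0.18, Ppp1r15b, which guides the phosphatase of eIF2, at 0.15 and Eif4ebp2, a repressor of eIF4E, at -0.18 on the same scale.

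The second comparison set mouse group 2 against mouse group 1 with genotype in the model. It called 9 of 45 members at an adjusted p under 0.05 in edgeR, which is close to the 24.1% of all genes tested that passed. Higher in mouse group 2 were 4 members (13.1% of all genes), the eIF2B subunits Eif2b3, Eif2b4 and Eif2b5, and Eif2d. Lower were 5 (11% of all genes), Eif5, Eif4e2, Eif2b2, Eif3e and Eif3h. The libraries of the 2 mouse groups did not overlap for 2 members that were higher (Eif2b4 and Eif2d, 10.5% of all genes) and 6 that were lower (Eif1, Eif2b2, Eif3e, Eif3h, Eif4e2 and Eif5, 11.4% of all genes). Both libraries with high proliferation marker sums, WT replicate 2 and Glut1Tg replicate 1, are in mouse group 2. With both left out, an alternative added after seeing the data, 3 members passed, and among WT libraries alone 3 passed. Leaving out Glut1Tg replicate 1 ended 6 of the 9 calls, WT replicate 1 or 2 ended 5, WT replicate 3 ended 4, Glut1Tg replicate 2 or 4 ended 3, and WT replicate 5 or Glut1Tg replicate 3 ended 1, that of Eif3h. The 6 were those of Eif2b2, Eif2b3, Eif2b5, Eif2d, Eif3e and Eif3h.

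Those that held in both of these smaller sets were Eif5, Eif4e2 and Eif2b4. Eif5 stood at 479, 426, 405, 405 and 384 CPM in mouse group 1 (WT replicates 1 and 3, then Glut1Tg replicates 2, 3 and 4) and at 232, 241, 209 and 243 CPM in mouse group 2 (WT replicates 2, 4 and 5, then Glut1Tg replicate 1). All 5 libraries of mouse group 1 lay above all 4 of mouse group 2, and the log2 difference was -0.88 (SE 0.12, adjusted p = 0.00243 in edgeR). In the same order, Eif4e2 stood at 158, 151, 163, 151 and 151 CPM against 102, 92.4, 85.1 and 114 CPM, with no overlap and a log2 difference of -0.62 (SE 0.12, adjusted p = 0.00765 in edgeR). Eif2b4, the delta subunit of eIF2B, went the opposite way, at 20.6, 26.1, 25.5, 29.8 and 24.7 CPM against 45.9, 44.97, 41.6 and 56.3 CPM, and its log2 difference was 0.98 (SE 0.13, adjusted p = 0.00235 in edgeR). Without WT replicate 2 and Glut1Tg replicate 1 the log2 differences were -0.99 for Eif5, -0.79 for Eif4e2 and 0.91 for Eif2b4. Exons of Eif2b4 overlap those of Snx17 on the opposite strand.

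The other 4 genes of eIF2B did not share 1 direction. Eif2b3, the gamma subunit, stood at 7.99, 7.67, 8.06, 11.3 and 6.76 CPM in mouse group 1 and 17.2, 10.3, 8.12 and 27.0 CPM in mouse group 2, with overlap and a log2 difference of 1.02 (SE 0.30, adjusted p = 0.0371 in edgeR). Without Glut1Tg replicate 1 it was 0.59 (adjusted p = 0.361 in edgeR). Eif2b5, the catalytic epsilon subunit, stood at 51.4, 54.0, 54.4, 65.6 and 54.9 CPM against 88.4, 59.9, 63.8 and 108 CPM, with overlap, and its log2 difference was 0.61 (SE 0.16, adjusted p = 0.0278 in edgeR). Eif2b2, the beta subunit, was lower, at 106, 115, 125, 80.2 and 122 CPM against 64.7, 77.7, 67.1 and 70.3 CPM, with no overlap and a log2 difference of -0.65 (SE 0.16, adjusted p = 0.0202 in edgeR). Eif2b1, the alpha subunit, ranged from 34.0 to 47.8 CPM over all libraries and had a log2 difference of 0.14 (SE 0.13, adjusted p = 0.476 in edgeR). Eif2d stood at 45.8, 52.4, 47.3, 52.4 and 48.1 CPM in mouse group 1 and 84.5, 60.3, 62.1 and 99.7 CPM in mouse group 2, with no overlap and a log2 difference of 0.70 (SE 0.16, adjusted p = 0.0155 in edgeR). Its exons overlap those of Rassf5 on the opposite strand.

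Of the eIF3 subunits, Eif3e and Eif3h were lower in mouse group 2. Eif3e, a subunit of the complex core, stood at 541, 479, 583, 598 and 525 CPM against 307, 443, 320.3 and 291 CPM, with a log2 difference of -0.68 (SE 0.17, adjusted p = 0.0206 in edgeR). Eif3h, which pairs with Eif3f, stood at 786, 696, 847, 867 and 805 CPM against 534, 688, 582 and 513 CPM, with a log2 difference of -0.46 (SE 0.15, adjusted p = 0.0495 in edgeR). Neither gene overlapped between mouse groups, and for both the lowest libraries were WT replicate 2 and Glut1Tg replicate 1. The call for Eif3h held in 4 of 17 alternatives, and its log2 difference was -0.30 without Glut1Tg replicate 1 (adjusted p = 0.347 in edgeR). Eif1 did not overlap either, at 761, 702, 799, 1309 and 737 CPM against 373, 664, 521 and 406 CPM, with a log2 difference of -0.76 (SE 0.27, adjusted p = 0.0685 in edgeR), which missed the threshold.

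**Figure D4:**
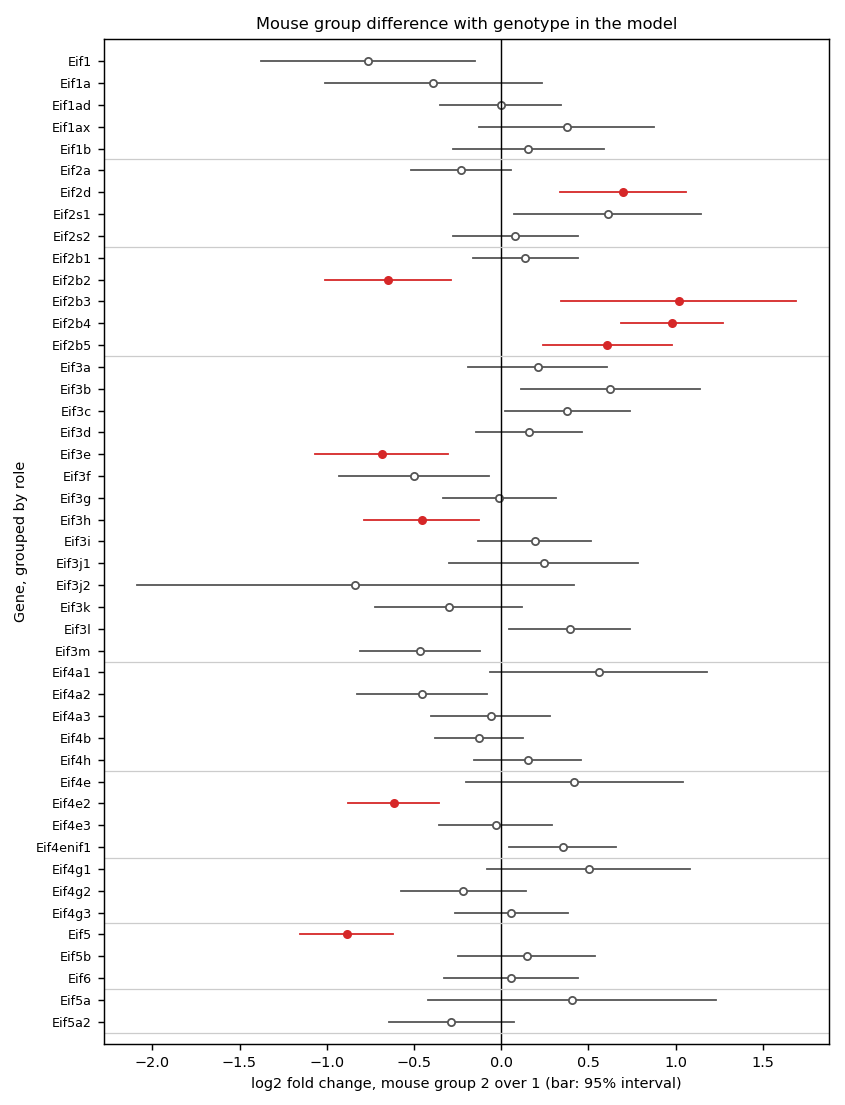
Log2 difference of mouse group 2 over mouse group 1 for each gene, grouped by family, from edgeR with genotype in the model, with bars for the 95% interval. Red filled points mark the 9 members with an adjusted p under 0.05, 4 to the right of 0 and 5 to the left.

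Within-library ratios of paralogs were compared between mouse groups in the same way as between genotypes. None of the 9 passed after adjustment (lowest adjusted p 0.0714), and 4 had an exact permutation p under 0.05. That test splits the libraries without regard to genotype. With libraries permuted only within genotypes (40 arrangements), Eif4g1 to Eif4g2 was at an exact p of 0.05 and the other 3 at 0.025, the smallest that test allows, with a lowest adjusted p of 0.075. The Eif1 to Eif1b ratio of counts was 23.9, 24.7, 22.2, 23.3 and 21.2 in mouse group 1 and 10.4, 15.8, 16.5 and 9.90 in mouse group 2. The 5 values of mouse group 1 lay above all of mouse group 2, a log2 difference of -0.85, and p = 0.00794 is the smallest that the exact test allows. The Eif1a to Eif1ax ratio did not overlap either (log2 difference -0.70, exact p = 0.0159). For Eif4e to Eif4e2 the log2 difference was 0.87 (exact p = 0.0317), with 0.398, 0.345, 0.334, 0.537 and 0.347 in mouse group 1 against 0.904, 0.524, 0.512 and 1.03 in mouse group 2. Glut1Tg replicate 3 was the library of mouse group 1 that overlapped. For Eif4g1 to Eif4g2 it was 0.58 (exact p = 0.0317). WT replicate 2 and Glut1Tg replicate 1 held the most extreme values of mouse group 2 in all 4.

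**Figure D5:**
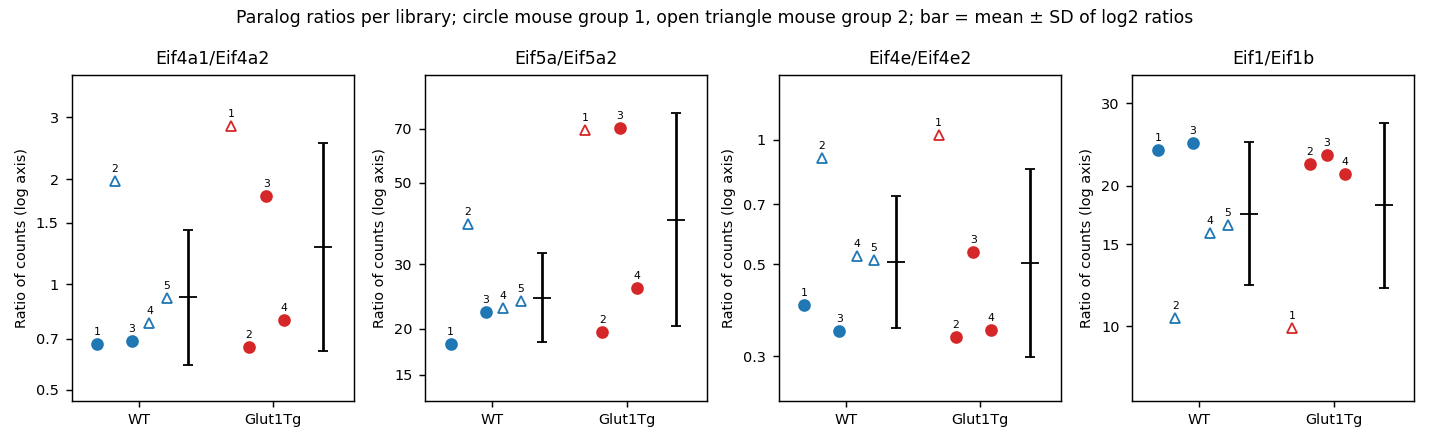
Ratio of counts for 4 gene pairs in each library on a log axis, with WT in blue and Glut1Tg in red, circles for mouse group 1, open triangles for mouse group 2, and bars for the mean ± SD of the log2 ratios of each genotype. Eif1/Eif1b separates circles (21.2 and above) from triangles (16.5 and below), while Eif4a1/Eif4a2 and Eif5a/Eif5a2 are high in WT 2 and Glut1Tg 1 and 3.

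Among the 39 partner genes, 4 rose in mouse group 2 and 4 fell in edgeR, a share of 20.5% against 24.1% of all genes tested. Those higher were Mcts1 (log2 0.69, adjusted p = 0.0334), which acts with Denr in reinitiation, Dhx29 (0.83, 0.0158), a helicase for structured leaders, Abcf1 (0.68, 0.0127), a partner of eIF2, and Gspt1 (1.01, 0.0205), the release factor eRF3. Those lower were Eif2ak3 (log2 -1.27, adjusted p = 0.0220), the eIF2 kinase of the endoplasmic reticulum, Pdcd4 (-0.72, 0.0298), an inhibitor of eIF4A, and Paip2 (-0.52, 0.0211) and Paip2b (-0.77, 0.00665), which both hold back the poly(A)-binding protein. Eif2ak3 stood at 184, 122, 123, 42.5 and 124 CPM in mouse group 1 and 53.2, 59.7, 72.3 and 41.7 CPM in mouse group 2. Its mouse groups overlapped through Glut1Tg replicate 3. Leaving out Glut1Tg replicate 1 ended 7 of these 8 calls, all but that of Paip2b, and took the log2 difference of Gspt1 to 0.64 (adjusted p = 0.228 in edgeR) and that of Pdcd4 to -0.44 (adjusted p = 0.252 in edgeR). Leaving out WT replicate 1 or WT replicate 2 ended those of Eif2ak3, Mcts1, Paip2 and Pdcd4, Glut1Tg replicate 2 or 4 those of Mcts1 and Pdcd4, and WT replicate 3 that of Mcts1. Over all 17 alternatives the call held in 8 for Mcts1, 9 for Pdcd4 and 10 for Paip2.

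Whether the genotype difference itself depended on mouse group was tested with an interaction term. It called 0 of 45 members (0% of all genes tested) in edgeR, with 0 at an unadjusted p under 0.05, where 5.3% of all genes were. DESeq2 also called 0 members. The lowest unadjusted p was 0.0720, for Eif4g1. Mouse group 2 holds a single Glut1Tg library, so this test rests on it.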

How the data were processed

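Induced regulatory T cells were profiled by mRNA sequencing in 9 libraries. Per the labels' protocols, RNA was taken with RNeasy kits and libraries were made with TruSeq stranded mRNA kits. The submitters' processing notes name bcl2fastq, TopHat2, featureCounts, DESeq2 and the build mm10. The sources used here do not give their versions or the strand setting. The authors deposited whole-number counts per gene, not normalized, for 28111 genes, and these counts were the only values analysed. The deposited table of log2 values was not used. Library totals ran from 20881035 to 31196428 counts.

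Counts were fitted with edgeR 4.0.16 in R 4.3.3 on the 14817 genes kept by filterByExpr by genotype, with TMM scaling, mouse group and genotype as terms, and glmQLFTest (two-sided). P-values were adjusted by the Benjamini-Hochberg method over all genes tested, with a threshold of 0.05. SE is the log2 fold change divided by the root of the F statistic. Log2 CPM used a prior count of 2. Paralog ratios within libraries were compared by exact two-sided permutation over all splits into 4 and 5, adjusted over 9 ratios. DESeq2 1.42.0, limma-voom 3.58.1, other filters, scalings and terms, and leaving out libraries were the alternatives. The fit was tested on simulated data. Gene structures came from GENCODE vM21 and promoter windows from RefSeq (GRCm38.p6, windows of 300 bases), which matched 36 of 45 members.

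The members, lists, roles and tests were chosen with earlier results of these data known. Values in every library were given for members at an unadjusted p under 0.05 by genotype, past the threshold by mouse group, highest of their role or in a paralog ratio, and the rest by range. Partner genes were named where highest in CPM of their group or at an unadjusted p under 0.05. Naming the partner genes past the threshold by mouse group was settled after their values were seen. Replicate numbers were not used to pair libraries, since no label ties a number to a shared animal or day.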

Additional observations from a re-analysis of the deposited data

Results flagged for a closer look

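Of 90 sets of values (45 members in each genotype), 13 had a library far from the others of its genotype, where chance gives about 1 in 20. That is 14.4% of the sets, which is near the 12.0% found over all genes tested. WT replicate 2 was far above the other WT libraries for Eif2s1 (138 CPM), Eif2b3 (17.2 CPM), Eif3b (326 CPM), Eif3c (468 CPM), Eif3l (284 CPM), Eif4a1 (655 CPM) and Eif5a (806 CPM). Glut1Tg replicate 1 was far above the other Glut1Tg libraries for Eif2d (99.7 CPM), Eif2b4 (56.3 CPM), Eif3c (536 CPM) and Eif4g1 (673 CPM), and far below them for Eif5 (242.5 CPM). Glut1Tg replicate 3 was far above the other Glut1Tg libraries for Eif1a (122 CPM). WT replicate 2 and Glut1Tg replicate 1, which held 7 and 5 of these values, are the libraries with proliferation marker sums of 4428 and 4430 CPM, and they also held 70.5% of such values over all genes tested. The part of the marker difference in these values was not tested.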

How the results depend on the processing

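By genotype, 0 members were called in all 18 alternatives. By mouse group, 9 members were called, against 14 with DESeq2, 3 among WT libraries, 3 without WT replicate 2 and Glut1Tg replicate 1 (for mouse group added after seeing the data), and 3 to 14 with 1 library left out (3 without Glut1Tg replicate 1, 4 without WT replicate 1, 4 without WT replicate 2, 5 without WT replicate 3 and 14 without WT replicate 4). All genes called by mouse group numbered 3576, against 651 (without Glut1Tg replicate 1) to 4575 (without Glut1Tg replicate 3) with 1 library left out, 561 without WT replicate 2 and Glut1Tg replicate 1, and 790 among WT libraries. The numbers were 1901, 2124 and 1958 without WT replicate 1, 2 and 3, and 4128 without WT replicate 4. The cause was not tested. With the replicate number as a block, 0 members and 0 genes were called by mouse group and 0 by genotype. Deviations from the genotype means of libraries with the same number had correlations of -0.51, -0.59, 0.23 and -0.21 for numbers 1 to 4. Numbers 1, 2 and 4 each join libraries of different mouse groups, and mouse group was not taken out. These correlations therefore cannot show whether libraries with the same number shared a day or batch. Eif5, Eif4e2 and Eif2b4 kept their mouse group call in 16 of 17 alternatives, the exception being the block (adjusted p = 0.0719, 0.112 and 0.0539 in edgeR). Signs turned for uncalled genotype log2 fold changes: without a mouse group term to 0.20 for Eif2b2, 0.14 for Eif3f and 0.18 for Eif5; in mouse group 1 to 0.16 for Eif3f and -0.10 for Eif4g2; without WT replicate 2 and Glut1Tg replicate 1 to 0.13 and -0.12; and without these and Glut1Tg replicate 3, chosen after seeing the data, to -0.037 for Eif2s2, 0.14 for Eif2b2, 0.18 for Eif3f and -0.044 for Eif4g2. Leaving out 1 library gave -0.12 to 0.34 for Eif1, -0.0038 to 0.041 for Eif4b, -0.071 to 0.084 for Eif2b2, -0.17 to 0.13 for Eif3f and -0.12 to 0.15 for Eif4g2. By mouse group, Eif2s2 turned to -0.0083 without a genotype term, -0.062 among WT libraries, -0.14 without WT replicate 2 and Glut1Tg replicate 1, and -0.063 to 0.16 with 1 library left out, and Eif5a to -0.15 without those 2 libraries. Genotype differences of log2 ratios with 1 library left out ran from -0.13 to 0.35 for Eif1/Eif1b, -0.35 to 0.20 for Eif4e/Eif4e2, -0.13 to 0.23 for Eif4e/Eif4e3 and -0.23 to 0.16 for Eif4g1/Eif4g2. The cause of these turns was not tested. Genes called by genotype numbered 1, against 7 with DESeq2, 2 with no filter and 14 without the 3 libraries.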
